A study of Mus musculus with 6 samples.

Results

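The T cell receptor signalling genes described here are 42 genes picked by name: 8 receptor chains and coreceptors, 6 kinases, 11 adaptors and scaffolds, 7 effectors downstream, 8 negative regulators and 2 phosphatases of either sign. All 42 had a probe among the 44781 genes and transcripts of a single-colour Agilent mouse array. Of these, 38 were bright enough to be tested, among 8582 bright genes in all, and the 4 others are given as unscaled intensities. The cells were TEa CD4+ T cells, which carry 1 transgenic receptor, on a C57BL/6 background. On day -1, CD45.2+ TEa cells were given to congenic CD45.1+ B6.SJL mice, grafted with a Balb/c heart on day 0. The transferred cells were sorted from the spleen on day 6. The 3 groups had 2 arrays each, called array 1 and array 2, the second being the one labelled as a repeat. The first group, Irf4 KO blockade, was Irf4-/- TEa cells from recipients injected with 200 µg of anti-PD-L1 and 200 µg of anti-CTLA-4 on days 0, 3 and 5. The second, Irf4 KO IgG, was Irf4-/- TEa cells from recipients given 400 µg of rat IgG on the same days. The last, WT IgG, was WT TEa cells labelled as treated with rat IgG, for which no dose is given. The antibodies acted on the whole recipient, which kept its own Irf4-sufficient lymphocytes, and the labels used here do not give the number of recipients behind an array. The labels call the arrays of a group independent experiments.

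When a T cell receptor binds its peptide, the kinase Lck phosphorylates the CD3 and zeta chains, and Zap70 docks on them and phosphorylates the adaptors Lat and Slp-76 (the product of Lcp2). The adaptors hold phospholipase C gamma, Vav1 and Ras activators together, which leads to calcium entry and NFAT, to Erk, and through protein kinase C theta, Bcl10 and Malt1 to NF-kB. Ubiquitin ligases of the Cbl family, diacylglycerol kinases and phosphatases such as Ptpn6 and Ptpn22 restrain these steps. Irf4 is a transcription factor that T cells induce in proportion to receptor signal strength.

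Levels below are log2 intensities after the bright genes (those averaging 8 or more in log2 units, or 256 on the linear scale) were quantile-normalised among themselves, so that a difference is relative to other bright genes. A gene passed where limma's Benjamini-Hochberg adjusted p, over all 8582 genes, was under 0.05. Agilent's software called 39.7% and 34.5% of probes well above background in Irf4 KO blockade cells, 66.0% and 75.2% in Irf4 KO IgG cells, and 37.3% and 40.5% in WT IgG cells, so weak probes gave more signal in the Irf4 KO IgG group. Scaling by each array's 75th percentile moved the median of the bright genes by -1.05 in Irf4 KO IgG minus WT IgG and by 1.09 in Irf4 KO blockade minus Irf4 KO IgG. All 8 CD4 T cell markers were well above background on all 6 arrays. Markers of B cells were well above background for 3 to 4 of 11 genes in Irf4 KO blockade cells, for 10 to 11 in Irf4 KO IgG cells and for 3 to 4 in WT IgG cells. Their summed intensity was 584 and 644 under blockade, 2291 and 11276 in Irf4 KO IgG and 394 and 399 in WT IgG. In bulk samples such as these, fewer cells of a type and less RNA per cell cannot be told apart.

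Irf4, the gene named in the genotype, gave log2 levels of 11.09 and 11.14 in Irf4 KO blockade cells and 11.21 and 11.07 in Irf4 KO IgG cells, against 9.61 and 9.81 in WT IgG cells. Both groups labelled Irf4 KO lay above WT without overlap. The log2 difference was 1.41 for blockade (SE 0.13, limma adjusted p = 0.0167), and 1.43 for IgG (SE 0.13, limma adjusted p = 0.0175). These calls held in 12 and 14 of 20 other settings, with the direction kept in all. Its second, dimmer probe ran the same way, with unscaled intensities of 218 and 163 under blockade, 226 and 221 in Irf4 KO IgG and 73.6 and 80.3 in WT IgG. This goes against the label as far as these probes can show it. Whether the probes fall inside or outside the deletion is not known, so the groups are named as they are labelled throughout.

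Few receptor signalling genes passed. Between Irf4 KO IgG and WT IgG 2 of the 38 tested members did, beside 1.86% of all bright genes. Txk was higher, as were 1.14% of bright genes, and Trat1 was lower, as were 0.722%. Between Irf4 KO blockade and Irf4 KO IgG 0 members passed by limma, beside 0.326% of bright genes (0.186% higher and 0.14% lower). Between Irf4 KO blockade and WT IgG 1 member passed, beside 1.11% of bright genes: Nfatc2 was lower, as were 0.478%, and 0 members were higher, beside 0.629%. At an unadjusted p under 0.05 the members numbered 12, 13 and 13 of 38 in these comparisons, shares of 31.6%, 34.2% and 34.2% beside 23.4%, 28.5% and 19.2% of all bright genes. Each pair of comparisons has a group in common, so their values are not independent of each other. Counts on a whole-array scale carry its shift. With the 75th percentile over 28249 genes, 34 members passed between Irf4 KO IgG and WT IgG, beside 58.9% of genes, 1 higher (31.5% of genes) and 33 lower (27.4%). In Irf4 KO blockade against Irf4 KO IgG 31 did, beside 58.8%, 30 higher (27.9%) and 1 lower (30.9%). Between Irf4 KO blockade and WT IgG 0 members and 0 genes passed by limma on that scale, where the bright-gene fit called 95 genes, and 1650 bright genes had an unadjusted p under 0.05.

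**Figure D1:**
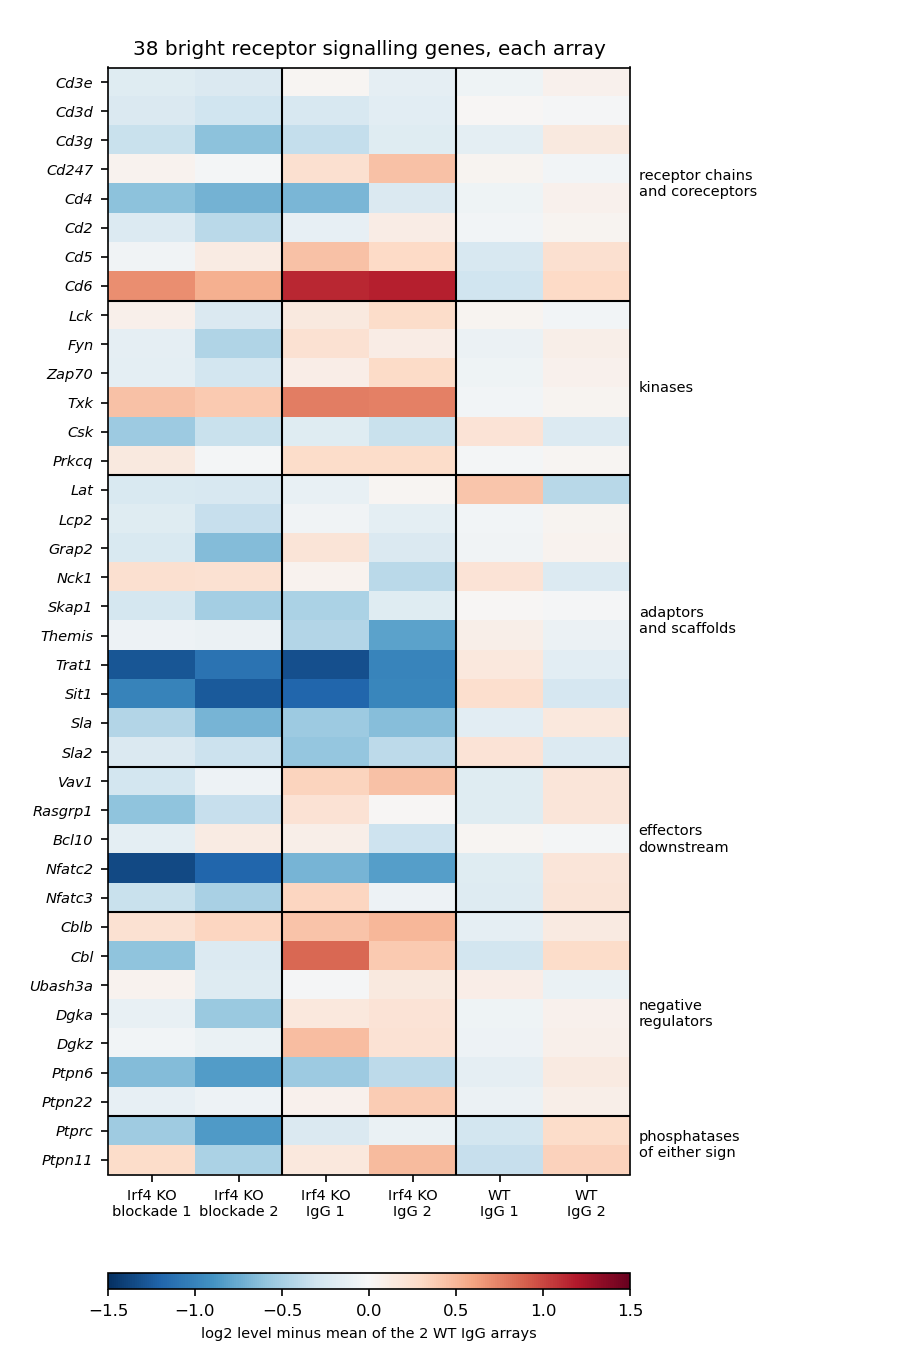
Each row is 1 of the 38 bright receptor signalling genes, by role, and each column 1 array; the colour is the log2 level minus the mean of the 2 WT IgG arrays, from blue (lower) to red (higher). Trat1 and Sit1 are dark blue on all 4 Irf4 KO arrays and Nfatc2 on the 2 blockade arrays, Cd6 is the reddest row on the 2 Irf4 KO IgG arrays, and most other rows are pale.

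The median log2 fold change of the 38 members was -0.01 between Irf4 KO IgG and WT IgG, with 18 above 0 and 20 below, beside -0.02 and 47.5% above 0 over all bright genes. For Irf4 KO blockade against Irf4 KO IgG it was -0.27, with 5 above 0 and 33 below, beside 0.03 and 53% above 0 over all bright genes. This lean was smaller with each array only centred on the median of its bright genes, where 24 of 38 members lay below that median and their median was -0.14. For Irf4 KO blockade against WT IgG it was -0.26, with 7 above 0 and 31 below, beside 0.00 and 50.6% above 0 over all bright genes, and 31 lay below with median centring too. The groups did not overlap for 13 higher and 12 lower members between Irf4 KO IgG and WT IgG, beside 23.1% and 29.2% of bright genes. They did not for 3 higher and 24 lower members between Irf4 KO blockade and Irf4 KO IgG, beside 34% and 28.9% of bright genes. They did not for 4 higher and 21 lower members between Irf4 KO blockade and WT IgG, beside 27.7% and 27.1%. The median half-width of the members' 95% intervals was 0.41 log2 units, so changes smaller than that could mostly not be told from 0 with 2 arrays per group.

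**Figure D2:**
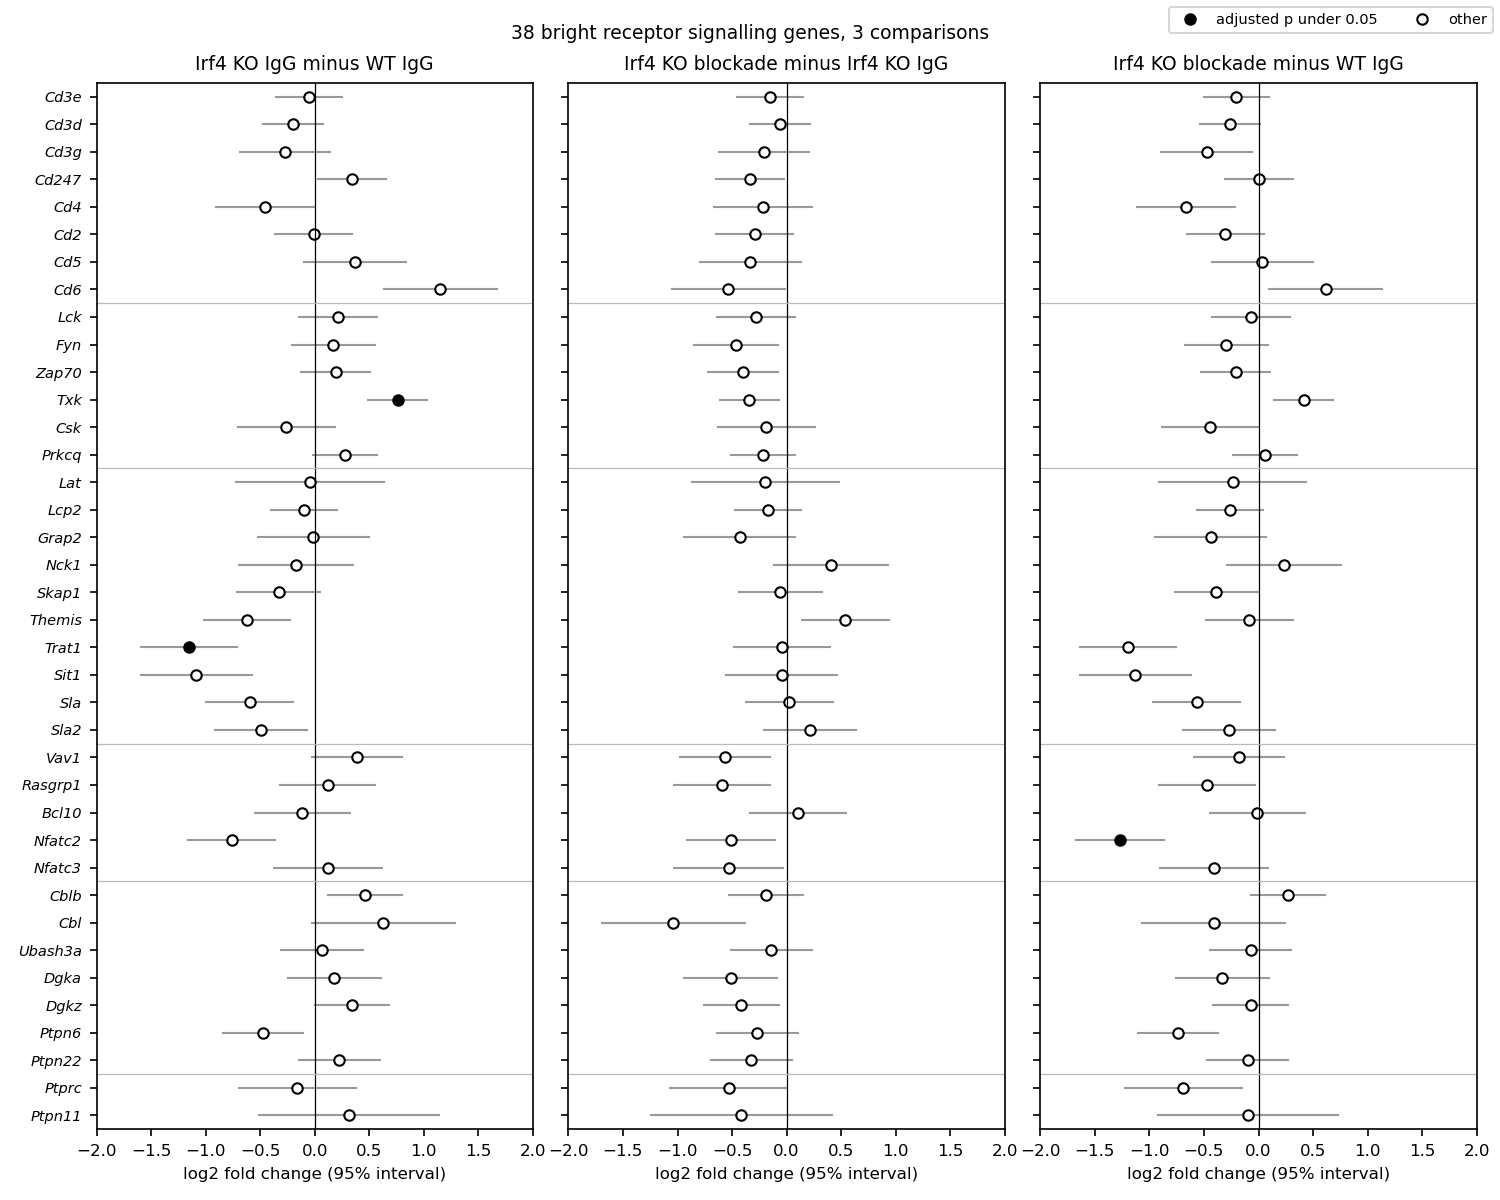
Points are log2 fold changes of the 38 bright receptor signalling genes in the 3 comparisons and lines their 95% intervals (limma, 2 arrays per group); filled points have an adjusted p under 0.05. Filled points are Txk and Trat1 in Irf4 KO IgG minus WT IgG and Nfatc2 in Irf4 KO blockade minus WT IgG, and most other intervals reach 0.

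The receptor itself showed no member past the threshold. Cd3e, the epsilon chain of CD3, had log2 levels of 15.06 and 15.02 in Irf4 KO blockade cells, 15.27 and 15.11 in Irf4 KO IgG cells, and 15.18 and 15.30 in WT IgG cells. Its 95% interval ran from -0.35 to 0.25 between Irf4 KO IgG and WT IgG and from -0.45 to 0.15 between blockade and IgG in Irf4 KO cells. Cd3d, Cd3g and Cd247, the delta, gamma and zeta chains, had fold changes between -0.27 and 0.34 in the first of these comparisons. Cd4, the coreceptor that brings Lck to the receptor, had levels of 13.54 and 13.44 under blockade, 13.47 and 13.95 in Irf4 KO IgG and 14.10 and 14.22 in WT IgG. Both Irf4 KO groups lay below WT, by -0.67 (95% interval -1.12 to -0.22, limma adjusted p = 0.147) and -0.45 (-0.90 to -0.00, limma adjusted p = 0.213), and neither difference passed.

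Cd6, a surface receptor related to Cd5 that binds the adhesion molecule Alcam, had the largest positive difference among the 38 bright members. Its log2 levels were 14.30 and 14.14 in Irf4 KO blockade cells and 14.74 and 14.77 in Irf4 KO IgG cells, against 13.31 and 13.90 in WT IgG cells. The 3 groups did not overlap, with Irf4 KO IgG highest and WT lowest. Between Irf4 KO IgG and WT IgG the difference was 1.15 (SE 0.21, limma adjusted p = 0.0617) and it narrowly missed the threshold. It was 0.87 within the first slide row and 1.43 within the second. Cd5, which dampens receptor signals, differed by 0.37 (limma adjusted p = 0.303) in the same comparison, and the adhesion receptor Cd2 by -0.01 (limma adjusted p = 0.975). All 8 genes of the role had a fold change below 0 between Irf4 KO blockade and Irf4 KO IgG (median -0.25), but with median centring 6 of 8 lay above the bright-gene median, so the sign of these small differences rested on the scaling.

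Txk, a Tec family kinase of T cells, rose in Irf4 KO IgG cells. Its log2 levels were 10.68 and 10.63 in Irf4 KO blockade cells, 11.00 and 10.99 in Irf4 KO IgG cells, and 10.19 and 10.28 in WT IgG cells. The 3 groups were separate, with blockade between the others. Irf4 KO IgG exceeded WT IgG by 0.76 on the log2 scale (SE 0.11, limma adjusted p = 0.045). It was 0.71 and 0.81 within the slide rows, and the adjusted p was 0.0629 with the slide row as a block. Blockade lay below IgG in Irf4 KO cells by -0.34 (limma adjusted p = 0.122) and above WT by 0.42 (limma adjusted p = 0.14), neither past the threshold. The Txk call ended when any 1 of the 6 arrays was left out, with adjusted p from 0.0805 without Irf4 KO IgG array 2 to 0.205 without WT array 1 and fold changes from 0.71 to 0.81.

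No other kinase passed in any comparison by limma. Lck, the kinase that starts the cascade, had levels of 15.97 and 15.67 in Irf4 KO blockade cells, 16.03 and 16.17 in Irf4 KO IgG cells, and 15.93 and 15.85 in WT IgG cells. Zap70, which binds the phosphorylated receptor chains, had 14.54 and 14.42 under blockade, 14.79 and 14.97 in Irf4 KO IgG and 14.63 and 14.75 in WT IgG. For both, Irf4 KO IgG was the highest group by a small margin, with differences from WT of 0.21 for Lck (limma adjusted p = 0.429) and 0.19 for Zap70 (limma adjusted p = 0.418). Both kept that direction in 16 of 20 other settings, and with median centring they were -0.16 and -0.15, so the sign rested on the scaling. Fyn, a Src family kinase, Prkcq, which encodes protein kinase C theta, and Csk, which phosphorylates the inhibitory site of Lck, gave 0.17, 0.27 and -0.26, with adjusted p from 0.237 to 0.545. The largest difference of the role between Irf4 KO blockade and Irf4 KO IgG was that of Fyn, at -0.46 (limma adjusted p = 0.13).

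Among the members, adaptors were the role with the most uniform direction between Irf4 KO IgG and WT IgG. All 10 bright adaptors had a fold change below 0 (median -0.41), 7 of them without overlap between the groups, where 29.2% of bright genes were lower without overlap. With other settings 8 to 10 lay below, and the median ran from -0.49 with median centring to -0.29 with the mean of all probes. Only Trat1 passed. Lat and Lcp2, the central scaffolds, were among those with the smallest mean differences, at -0.04 (95% interval -0.72 to 0.63) and -0.10 (-0.40 to 0.20). Lat differed by 0.45 within the first slide row and by -0.53 within the second, so its direction was not settled.

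Trat1 encodes a transmembrane adaptor that associates with the receptor complex and binds the phosphatidylinositol 3-kinase subunit p85. It had log2 levels of 8.25 and 8.43 in Irf4 KO blockade cells and 8.22 and 8.55 in Irf4 KO IgG cells, against 9.70 and 9.38 in WT IgG cells. Both Irf4 KO groups overlapped each other and lay below WT without overlap. Irf4 KO IgG minus WT gave -1.15 (SE 0.18, limma adjusted p = 0.0471), a call that just passed. For Irf4 KO blockade over WT it was -1.20 (SE 0.18, limma adjusted p = 0.0563), which just did not. Within the slide rows the first was -0.83 and -1.47 and the second -1.13 and -1.26. Its second probe, too dim for the fit, ran the same way, with unscaled intensities of 68.4 and 96.9 under blockade, 103.9 and 175.2 in Irf4 KO IgG and 247.9 and 222.3 in WT IgG. The call ended without any 1 of the 6 arrays (adjusted p from 0.0612 without Irf4 KO IgG array 2 to 0.209 without WT array 1) and with the slide row as a block (0.0733).

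Sit1, a transmembrane adaptor that recruits the phosphatase Shp2 and dampens receptor signals, had the same pattern as Trat1 without passing. Its levels were 9.92 and 9.66 in Irf4 KO blockade cells, 9.72 and 9.94 in Irf4 KO IgG cells, and 11.16 and 10.67 in WT IgG cells. The fold changes over WT were -1.13 (SE 0.21, limma adjusted p = 0.079) under blockade and -1.08 (SE 0.21, limma adjusted p = 0.0661) with IgG. Blockade and IgG overlapped, at a difference of -0.05 with a 95% interval from -0.56 to 0.46. Sla and Sla2, adaptors that promote turnover of receptor and CD3 chains, differed by -0.59 (limma adjusted p = 0.119) and by -0.49 (limma adjusted p = 0.173) between Irf4 KO IgG and WT IgG. Themis, a T-lineage regulator that binds Grb2 and Ptpn6, had levels of 10.43 and 10.41 under blockade, 10.06 and 9.70 in Irf4 KO IgG and 10.60 and 10.41 in WT IgG. It was the bright member with the largest positive difference between Irf4 KO blockade and Irf4 KO IgG, 0.54 (limma adjusted p = 0.109), and with IgG lay -0.62 from WT (limma adjusted p = 0.108). A dimmer Themis probe went the other way on unscaled intensities, with 105.5 and 66.5 under blockade, 154.7 and 293.9 in Irf4 KO IgG and 86.9 and 107.8 in WT IgG. The remaining adaptors, Skap1, Nck1 and Grap2, differed from WT by -0.33 to -0.01 in Irf4 KO IgG cells.

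**Figure D3:**
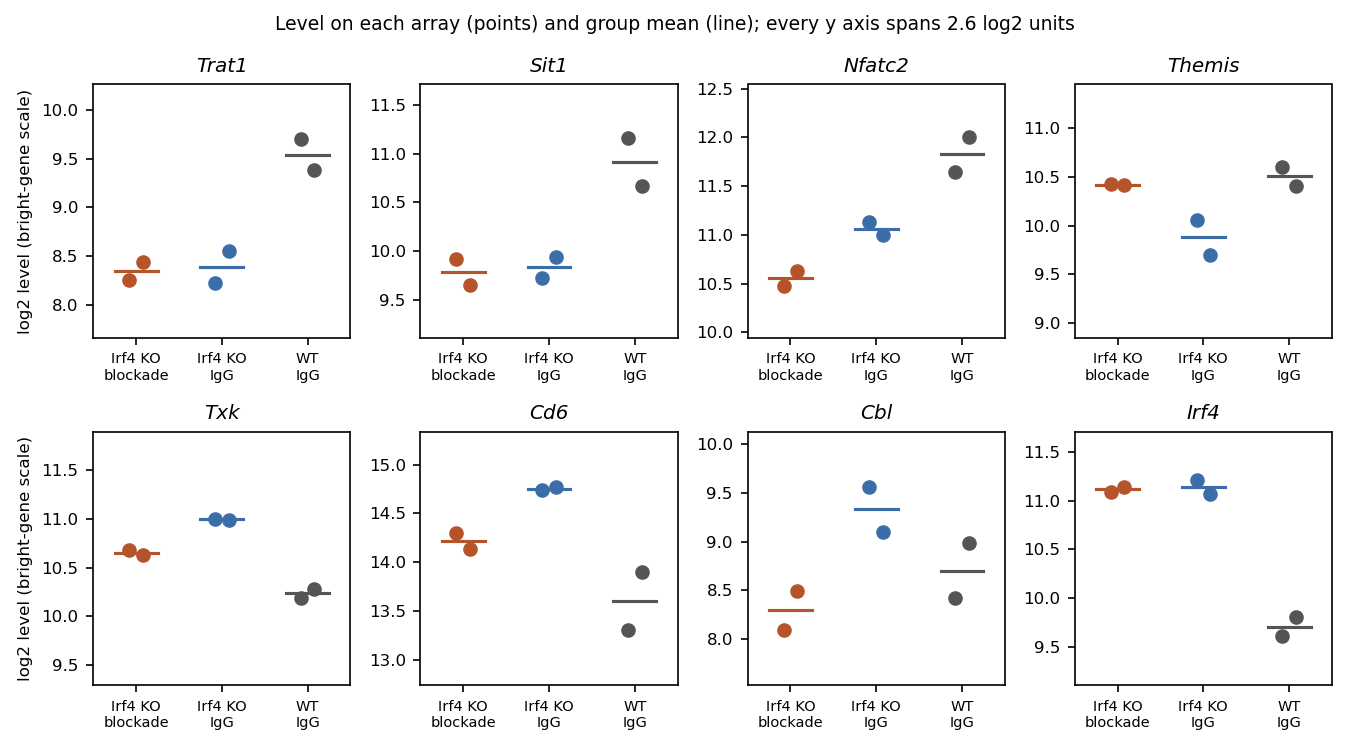
Points are the log2 levels of 7 receptor signalling genes and Irf4 on each array and lines the group means, with Irf4 KO blockade, Irf4 KO IgG and WT IgG from left to right and the same span on every y axis. Both Irf4 KO groups lie below WT for Trat1, Sit1 and Nfatc2 and above it for Txk, Cd6 and Irf4, and Cbl is highest in Irf4 KO IgG.

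Trat1 and Sit1 were both lowest in the Irf4 KO groups, so the sequence before each gene's start is shown. The 250 bases upstream are from RefSeq (GRCm38.p6), which held promoters for 35 of the 42 members, and both genes lie on the minus strand. They are at chr16:48772063-48772312 for Trat1 and chr4:43483710-43483959 for Sit1. Capitals mark the core of an NFAT site, GGAAA on either strand, of which each has 1.
Trat1: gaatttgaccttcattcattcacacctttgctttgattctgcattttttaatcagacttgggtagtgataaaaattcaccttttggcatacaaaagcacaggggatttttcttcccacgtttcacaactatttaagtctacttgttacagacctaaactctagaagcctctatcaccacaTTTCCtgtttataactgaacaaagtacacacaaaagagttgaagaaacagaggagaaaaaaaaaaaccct
Sit1: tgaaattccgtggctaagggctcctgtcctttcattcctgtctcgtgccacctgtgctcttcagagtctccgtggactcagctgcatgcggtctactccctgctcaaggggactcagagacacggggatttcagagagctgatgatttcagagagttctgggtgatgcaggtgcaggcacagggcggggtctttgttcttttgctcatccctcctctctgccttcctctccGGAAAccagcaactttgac
That core is common: 55.6% of 32851 promoter windows of this length hold it, as do 35 of the 50 windows of the members, some of which have several. Motifs of Irf4 and its partners were rarer. The Ets-IRF composite (GGAA, any 2 bases, then GAAA), searched on both strands like the others, was in 2.3% of all windows and in those of 2 members, Cblb and Dgka. Its matches, in capitals below, begin 241 bases before the start of Cblb (chr16:52031299-52031327, plus strand) and 61 bases before a start of Dgka (chr10:128745126-128745155, minus strand).
Cblb: ctgctacttTTTCAGTTCCtttcctcgtt
Dgka: ttttttttctTTTCTTTTCCtttctcttct
Neither the interferon-stimulated response element (GAAA, any 2 bases, then GAAA; 2.98% of all windows) nor the AP-1 motif TGANTCA (6.75%) had a match among the members. The composites of AP-1 with IRF, which contain the AP-1 motif, were in 0.0974% (TTTC, any 4 bases, then TGANTCA) and 0.1% (GAAA directly before TGANTCA) of all windows and in 0 of the members'. A match in such letters is a description of these windows, and these data hold no measurement of binding.

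Among the effectors downstream, Nfatc2 was lower in Irf4 KO blockade than in WT IgG cells. Nfatc2 encodes an NFAT transcription factor that enters the nucleus once calcineurin has dephosphorylated it. Its log2 levels were 10.48 and 10.63 in Irf4 KO blockade cells, 11.13 and 11.00 in Irf4 KO IgG cells, and 11.64 and 12.01 in WT IgG cells. The 3 groups did not overlap, with blockade lowest, Irf4 KO IgG between and WT highest. Irf4 KO blockade over WT gave -1.27 (SE 0.16, limma adjusted p = 0.0413), with -1.53 and -1.01 within the slide rows. Irf4 KO IgG over WT gave -0.76 (SE 0.16, limma adjusted p = 0.0785) and blockade over IgG in Irf4 KO cells -0.51 (SE 0.16, limma adjusted p = 0.121), and neither passed. A dimmer probe, well above background on 5 of 6 arrays, read unscaled intensities of 26.8 and 13.6 under blockade, 117.9 and 241.5 in Irf4 KO IgG and 80.0 and 76.6 in WT IgG. It placed blockade lowest too, but Irf4 KO IgG above WT. The call held without Irf4 KO IgG array 1 (adjusted p = 0.0499) and ended without any other single array (0.0505 without Irf4 KO IgG array 2 to 0.254 without blockade array 1), with the slide row as a block (0.0875), and in the all-gene fit centred on the bright genes (0.293).

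Most other effectors lay lower under blockade than with IgG, and none of these differences passed. Rasgrp1, a diacylglycerol-activated exchange factor for Ras, had levels of 10.56 and 10.82 in Irf4 KO blockade cells, 11.38 and 11.18 in Irf4 KO IgG cells, and 10.99 and 11.34 in WT IgG cells. Vav1, an exchange factor for Rac, had 12.94 and 13.14 under blockade, 13.55 and 13.67 in Irf4 KO IgG and 13.03 and 13.41 in WT IgG. Both were separate between blockade and IgG in Irf4 KO cells, at -0.59 (SE 0.18, limma adjusted p = 0.11) and -0.57 (SE 0.17, limma adjusted p = 0.108). Nfatc3, a second NFAT factor, differed by -0.53 (limma adjusted p = 0.158) there, and Bcl10, which links protein kinase C to NF-kB, by 0.10 (limma adjusted p = 0.723). The median of the 5 bright effectors was -0.53 in this comparison and between -0.61 and -0.42 in 20 other settings.

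Negative regulators lay mostly above WT IgG in Irf4 KO IgG cells by small amounts, with 6 of 7 above 0 (median 0.22) beside 47.5% of all bright genes. By limma 0 passed, and 2 of 7 had an unadjusted p under 0.05, beside 23.4%. Sit1, Sla and Sla2, which also dampen signals, are counted among the adaptors here and lay below WT, so the count depends on the grouping. Cbl, a ubiquitin ligase that targets activated receptor complexes, had the largest difference between Irf4 KO blockade and Irf4 KO IgG among the 38 bright members. Its levels were 8.10 and 8.49 in Irf4 KO blockade cells and 9.56 and 9.10 in Irf4 KO IgG cells, beside 8.43 and 8.98 in WT IgG cells. Blockade lay below IgG without overlap, by -1.04 (SE 0.27, limma adjusted p = 0.0874), with -1.01 and -1.07 within the slide rows. This did not pass, and blockade and WT overlapped. Cbl was among the dimmest tested members (mean log2 intensity 8.77), and weak probes gave more signal in Irf4 KO IgG cells. Cblb, the family member best known for limiting T cell activation without costimulation, lay 0.46 above WT in Irf4 KO IgG cells (limma adjusted p = 0.136) and -0.19 from them under blockade (limma adjusted p = 0.389).

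The diacylglycerol kinases Dgka and Dgkz, which remove the lipid that activates Rasgrp1, were 0.18 and 0.34 above WT in Irf4 KO IgG cells and -0.51 and -0.41 from IgG under blockade, with limma adjusted p from 0.131 to 0.56. Against WT, Dgka kept its sign in 16 of 20 other settings and Dgkz in 20, with lowest values of -0.12 and 0.01. Between blockade and IgG both kept theirs in 20, with values up to -0.21 for Dgka and -0.01 for Dgkz. Ptpn6, the phosphatase Shp-1, was the only tested negative regulator below WT in both Irf4 KO groups without overlap. Its levels were 11.89 and 11.70 under blockade, 11.99 and 12.14 in Irf4 KO IgG and 12.40 and 12.67 in WT IgG. Blockade lay -0.74 from WT (limma adjusted p = 0.0867) and IgG -0.47 (limma adjusted p = 0.149). A second bright probe gave -0.73 for blockade and -0.48 for IgG. Ptpn22, which dephosphorylates Lck and Zap70, and Ubash3a, a suppressor of receptor signalling, differed from WT by 0.22 and 0.07 in Irf4 KO IgG cells. Ptprc, which encodes CD45 and both activates and restrains Lck, had levels of 13.77 and 13.45 under blockade, 14.09 and 14.20 in Irf4 KO IgG and 14.03 and 14.58 in WT IgG, at -0.69 (limma adjusted p = 0.181) for blockade over WT. Ptpn11, the phosphatase Shp2, had the widest interval of the 38 bright members, at 0.31 with a 95% interval from -0.51 to 1.14 between Irf4 KO IgG and WT IgG.

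**Figure D4:**
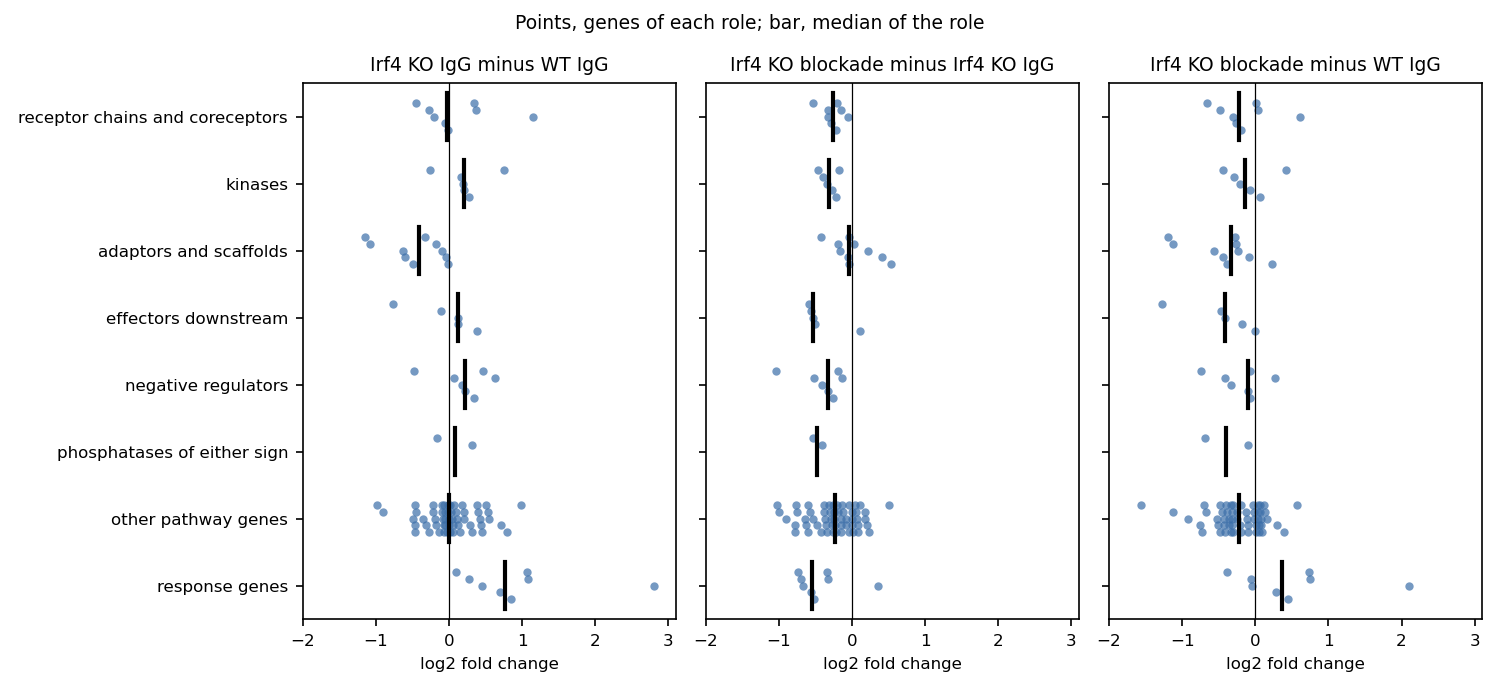
Points are log2 fold changes of the bright genes in each role and bars the median of the role, for the 3 comparisons. In Irf4 KO IgG minus WT IgG the adaptors lie below 0 (median -0.41) and the response genes above it (median 0.77); between Irf4 KO blockade and Irf4 KO IgG most medians lie below 0, though those of the receptor chains and of the adaptors are above 0 with median centring.

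The 4 members outside the fit had a mean log2 intensity under 8, at 7.70 for Rnf128, 6.64 for Malt1, 6.03 for Plcg1 and 3.17 for Pag1, whereas the dimmest members inside it, Cbl and Trat1, had 8.77 each. Rnf128, a ubiquitin ligase linked to anergy and also called Grail, read unscaled intensities of 387.7 and 48.5 in Irf4 KO blockade cells, 372 and 1089 in Irf4 KO IgG cells and 62.9 and 171.2 in WT IgG cells. The 2 blockade arrays fell on either side of the WT range. With a minimum of 7 it entered the fit, at 2.08 for Irf4 KO IgG over WT (SE 0.81, limma adjusted p = 0.204). Its entry rested in part on the high Irf4 KO IgG arrays themselves. Malt1, the protease of the Bcl10 complex, read 53.2 and 65.2 under blockade, 180 and 229.4 in Irf4 KO IgG and 59.6 and 114.9 in WT IgG. Plcg1, which encodes phospholipase C gamma 1, read 51.9 and 28.0 under blockade, 77.3 and 111.8 in Irf4 KO IgG and 62.8 and 97.8 in WT IgG. Pag1, a lipid-raft adaptor that binds Csk, was well above background only in Irf4 KO IgG cells, at 43.2 and 34.9, against 3.6 and 4.6 under blockade and 4.8 and 4.4 in WT IgG. Weak probes in general were brighter in Irf4 KO IgG cells, and no fold is given for these dim genes between the groups on unscaled intensities.

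**Figure D5:**
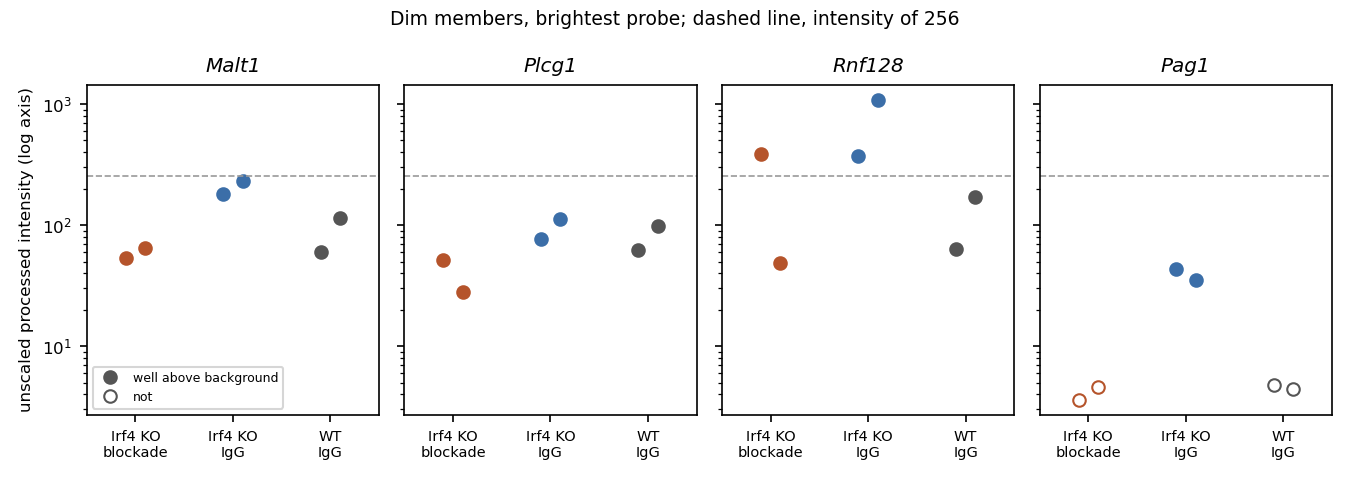
Points are unscaled processed intensities (log axis) of the brightest probe of the 4 dim members on each array, filled where well above background and open where not; the dashed line is the intensity of 256. The Irf4 KO IgG arrays are the brighter ones for Malt1 and Pag1, and the 2 blockade arrays lie far apart for Rnf128.

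Of the members, 22 had several probes, 68 in all. Second probes bright enough for the same scale had the sign of the one used for 14 of 15 genes between Irf4 KO IgG and WT IgG, the exception being Cd3e at 0.03. They did so for 11 of 15 in each comparison with blockade. Csk, Grap2, Lcp2 and Sla were opposite between blockade and IgG in Irf4 KO cells, and Cblb, Cd247, Lck and Ptpn11 between blockade and WT. Dimmer further probes, compared on unscaled intensities, had the same sign for 6 of 10 between Irf4 KO IgG and WT IgG, the opposite ones being those of Nfatc2, Sla and Themis (2 probes). That of Sla, well above background on all 6 arrays, gave 0.31, against -0.49 for the probe used. In each comparison with blockade 9 of 10 had the same sign, all but that of Nfatc3. Unscaled values carry the brightness of each array, so this agreement says little about directions on the bright-gene scale. Between blockade and IgG in Irf4 KO cells, the used probes of Themis, Nck1 and Sla gave -0.01, -0.23 and -0.40 unscaled. On the bright-gene scale they gave 0.54, 0.41 and 0.03.

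Beyond the members, 77 other genes of the pathway were listed, of which 71 had a probe and 56 were bright. Between Irf4 KO IgG and WT IgG 0 of them were higher and 2 were lower by limma, against the shares of 1.14% and 0.722% above. Itpr1, a receptor channel that releases stored calcium, had levels of 8.12 and 7.99 in Irf4 KO blockade cells, 8.60 and 8.67 in Irf4 KO IgG cells and 9.49 and 9.74 in WT IgG cells. It was lower than WT in both Irf4 KO groups, by -1.56 (SE 0.14, limma adjusted p = 0.0167) under blockade and -0.98 (SE 0.14, limma adjusted p = 0.0408) with IgG. Lime1, a transmembrane adaptor, had 13.10 and 13.04 under blockade, 12.88 and 12.92 in Irf4 KO IgG and 13.88 and 13.73 in WT IgG, and was lower in Irf4 KO IgG than in WT IgG by -0.90 (SE 0.12, limma adjusted p = 0.0344). Ppp3ca encodes the alpha form of the catalytic subunit of calcineurin, which activates NFAT. It had 8.05 and 8.20 under blockade, 8.73 and 9.06 in Irf4 KO IgG and 9.18 and 9.32 in WT IgG. It was lower under blockade than in WT by -1.12 (SE 0.16, limma adjusted p = 0.0486). The other catalytic forms, Ppp3cb and Ppp3cc, were not lower there, at 0.07 (limma adjusted p = 0.784) and 0.39 (limma adjusted p = 0.195). Between Irf4 KO blockade and WT IgG the 2 of 56 that passed were thus Itpr1 and Ppp3ca, both lower, beside 1.11% of all bright genes called and 0.478% lower. Under blockade both lay near 8, the minimum for the fit, and their higher WT levels raised the mean on which entry rested. These calls were lost in many other settings, with the direction kept in all of them. Itpr1 passed in 10 of 18 under blockade (adjusted p up to 0.253) and in 9 of 18 with IgG (up to 0.125). Lime1 passed in 11 of 20 (up to 0.173) and Ppp3ca in 7 of 19 (up to 0.315). Leaving out any 1 of the 6 arrays ended the calls of Lime1 and of Itpr1 with IgG, and leaving out any blockade or WT array ended those of Itpr1 and Ppp3ca under blockade.

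Between Irf4 KO blockade and Irf4 KO IgG 0 of the 56 passed by limma, beside 0.326% of all bright genes, and 18 had an unadjusted p under 0.05, beside 28.5%. The median was -0.24, with 13 above 0 and 43 below, beside 53% above 0 over all bright genes. The largest differences there were those of the calcium channels Itpr2 (-1.03, limma adjusted p = 0.0998) and Itpr3 (-0.90, limma adjusted p = 0.105) and of the adaptor Lax1. Lax1, which restrains receptor signalling, had levels of 7.75 and 7.92 in Irf4 KO blockade cells and 8.66 and 9.03 in Irf4 KO IgG cells, beside 8.02 and 7.68 in WT IgG cells. Irf4 KO IgG was separate from both other groups, with -1.01 for blockade over IgG (limma adjusted p = 0.0709) and 0.99 for IgG over WT (limma adjusted p = 0.0663). In those other groups Lax1 lay around 8, the minimum for the fit, so its higher Irf4 KO IgG level helped it enter. Weak probes also gave more signal in that group.

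Of 13 listed genes that receptor signals induce, 8 of 8 bright ones lay above WT IgG in Irf4 KO IgG cells (median 0.77), beside 47.5% of all bright genes, and 6 to 8 did in 20 other settings. The rest of the list, Nr4a2, Nr4a3, Il2, Il2ra and Cd40lg, was outside the fit and is not counted. Of the 8, 1 passed, beside 1.14% of all bright genes called higher. That gene, Tnfrsf9, the costimulatory receptor 4-1BB, had levels of 9.84 and 9.96 in Irf4 KO blockade cells and 10.47 and 10.71 in Irf4 KO IgG cells, against 7.18 and 8.41 in WT IgG cells. It rose by 2.80 (SE 0.39, limma adjusted p = 0.0408). Its WT levels lay on either side of 8, the minimum for the fit, so its higher Irf4 KO levels helped it enter. The call held in 12 of 20 other settings, with adjusted p up to 0.123, and ended without any 1 array other than WT array 2. The early activation marker Cd69 differed by 1.08 (limma adjusted p = 0.132), the transcription factors Egr2 by 1.07 (limma adjusted p = 0.119) and Nr4a1 by 0.69 (limma adjusted p = 0.259) in the same comparison. None of the list passed in the comparisons with blockade by limma (1 of 8 at an unadjusted p under 0.05 against Irf4 KO IgG and 2 against WT IgG, beside 28.5% and 19.2% of all bright genes), and the median was -0.54 between Irf4 KO blockade and Irf4 KO IgG.

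Signal of other cells differed between arrays and is given beside these results. The B cell counterparts of the cascade, Syk, Btk, Blnk, Plcg2 and Lyn, were well above background for 1 to 2 of 5 genes in Irf4 KO blockade cells, 5 of 5 in Irf4 KO IgG cells and 2 of 5 in WT IgG cells, with summed intensities of 300 and 287 under blockade, 933 and 3540 in Irf4 KO IgG and 427 and 483 in WT IgG. Cd3e read 28175 or more on every array. Markers of monocytes, macrophages and neutrophils were well above background for 7 of 12 genes on each blockade and WT IgG array and for 11 of 12 on each Irf4 KO IgG array. Their summed intensity was 57314 and 52841 under blockade, 39859 and 126858 in Irf4 KO IgG and 73865 and 61882 in WT IgG. Ly6c2 alone read 52569 and 45379 under blockade, 31330 and 58454 in Irf4 KO IgG and 69317 and 56228 in WT IgG. It made up most of the sum on every array but Irf4 KO IgG array 2. The sums therefore do not rank the arrays by signal of these cells. Dendritic cell markers were well above background for 1 of 6 genes on each blockade and WT IgG array and for 4 and 5 in Irf4 KO IgG. Those of CD8 T and NK cells were above it for 3 of 6 on each blockade array, 5 and 6 in Irf4 KO IgG and 3 and 4 in WT IgG. Erythroid and platelet markers summed to 11487 and 7079 under blockade, 1504 and 54936 in Irf4 KO IgG and 184 and 755 in WT IgG. The part of these cells in any value above was not tested.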

How the data were processed

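Expression was measured on 6 single-colour Agilent arrays, 2 for each of 3 groups. The authors used Cy3 on 0.5 µg of RNA, per the labels' protocols. Agilent Feature Extraction produced the spot values, in version 11.0.1.1 per the file headers and 9.1 per the submitters' processing notes. Each deposited scanner file gives a linear intensity after background subtraction and detrending, with no scaling between arrays. An authors' table of those intensities, each array divided by its own constant, was an alternative.

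Flagged and control spots were left out, and spots of a probe were averaged as log2 of the deposited intensity. Genes were named through RefSeq accessions (58.3% of 55371 probes), and the probe with the highest mean was kept. Genes well above background on both arrays of a group with a mean log2 of at least 8 were quantile-normalised among themselves. One fit by limma 3.58.1 (R 4.3.3) held all 3 groups, with 3 residual degrees of freedom, and Benjamini-Hochberg adjustment over 8582 genes used a threshold of 0.05. The members, lists and scale were chosen with earlier results of these data known. Full values are given for members that passed, for the 3 largest differences of each comparison, for dim members and for Irf4, and other members are placed by their values. Themis, Ptpn6, Ptprc, Cd4, Cd3e, Lck and Zap70 were added after their values were seen. All arrays were on 1 slide in 2 slide rows, each with 1 array per group, so the row served as a block and comparisons were also made within rows. The number of arrays limits the precision, and no spot was saturated. Shared replicate numbers gave no sign of pairing (correlations of the differences between arrays of a group from -0.20 to 0.03). With 2 arrays per group, this cannot show whether arrays of the same number came from the same experiment. P-values set a difference against the spread between the 2 arrays of a group. That spread was pooled over all 3 groups and drawn by limma towards that of other bright genes.

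The script was tested on simulated data.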

Additional observations from a re-analysis of the deposited data

How the results depend on the processing

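Over the 38 bright members, 755 values under other settings were read in each comparison. The order is Irf4 KO IgG minus WT IgG, Irf4 KO blockade minus Irf4 KO IgG, then Irf4 KO blockade minus WT IgG. In that order 683, 695 and 711 kept their side of the threshold and their direction. Since 2, 0 and 1 members passed in the main fit, most of these were uncalled values that stayed uncalled. A call was lost in 18, 0 and 13 values and gained in 13, 6 and 2. Direction changed without a call in 41, 54 and 29. It changed with a call in 0, which few values could have done. Whole-array scales move all bright genes together, so single genes were read relative to the bright-gene median there, whereas counts were not. Counts of bright genes and of members called are given in that order of comparisons, the main ones being 160, 28 and 95 genes and 2, 0 and 1 members. The all-gene fit scaled by the 75th percentile called 16644, 16612 and 0 genes and 34 (1 higher, 33 lower), 31 (30 higher, 1 lower) and 0 members. The array median called 17978, 17480 and 0 genes and 40 (all lower), 40 (all higher) and 0 members, and the median over probes that every array detected, chosen after seeing the data, 11541, 12348 and 0 genes and 11, 3 and 0 members. Normexp with quantiles called 3314, 4299 and 46 genes and 6, 1 and 0 members. A minimum of 7 gave 269, 63 and 67 genes and 2, 0 and 0 members, and a minimum of 9 gave 94, 29 and 86 genes and 1, 0 and 1 members. Median centring gave 271, 630 and 135 genes and 3, 1 and 2 members, cyclic loess 151, 22 and 130 genes and 2, 0 and 2 members, and the mean of all probes 144, 62 and 59 genes and 1, 1 and 1 members. The slide row as a block gave 88, 0 and 32 genes and 0 members in each. The 4 arrays compared alone gave 6, 32 and 104 genes and 0 members in each. Whether the replicate numbers pair the samples is not known. With a replicate block 23, 30 and 54 genes and 0, 0 and 0 members were called. Leaving out 1 array gave 6 to 102, 0 to 318 and 0 to 111 genes, and 0 to 0, 0 to 0 and 0 to 1 members; the group of the left-out array then has 1 array, assumed to vary like the others. The cause of these shifts was not tested, apart from the bright-gene medians given above. Members with a mean log2 intensity under 8 are limited by signal over background.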
